A study of Mus musculus with 24 samples.

Results

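The eukaryotic translation initiation factors (eIF, gene symbols starting Eif) and elongation factors (eEF, gene symbols starting Eef) were examined in mouse calf muscle after hind limb unloading. Members were the probe sets of the Affymetrix mouse array listed with 1 gene whose symbol is Eif or Eef followed by a digit, which takes in Eif4ebp1 and its relatives, the eIF2 kinases and the enzymes that modify elongation factors. The rule gave 118 probe sets of 52 genes among the 22626 probe sets of the array. Of these, 113 probe sets, covering all 52 genes, passed the filter on low intensity (above 20 on at least 4 of the 24 arrays) and were tested, as were 19294 probe sets of the whole array. The 5 that did not pass belong to Eif4g2, Eif2ak3, Eif3h (both 1434323_at and 1434324_x_at) and Eif3l, genes that each have another probe set tested. A further 6 probe sets of these factors are shared with another gene and were set aside.

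Translation starts when eIF2, bound to GTP and the initiator methionyl-tRNA, joins eIF3, eIF1, eIF1A and eIF5 on the small ribosomal subunit, and the eIF4F complex (the cap binding protein eIF4E, the scaffold eIF4G and the helicase eIF4A) brings this assembly to the capped mRNA. The 4E-BP proteins hold eIF4E away from eIF4G until the kinase mTORC1 phosphorylates them, and kinases of eIF2 slow initiation by blocking its exchange factor eIF2B. eEF1A delivers aminoacyl-tRNA to the ribosome, eEF2 moves the ribosome along the mRNA, and skeletal muscle that bears no load is known for slower protein synthesis and loss of mass.

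Gastrocnemius and plantaris muscles were taken from male mice, 6 weeks old at purchase, kept for 6 days with the hind limbs unloaded (HU) or left weight bearing (WB). The genotypes were Nfkb1-/- (strain B6;129P2-Nfkb1tm1Bal/J), which lacks the p50 subunit of NF-κB, Bcl3-/- (strain FVB;129P2-Bcl3tm1Ver/J), which lacks the p50 partner Bcl-3, and wild type (strain B6129PF2/J), with 4 mice and 4 arrays in each of the 6 groups. Both deletions are whole-body, and the wild type strain shares the 129 part of the knockout backgrounds but not the FVB part. The design asks which unloading responses of muscle RNA depend on p50 or Bcl-3.

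The authors' deposited intensities lie on separate scales. Array medians were 81.1 to 86.8 on the 8 Bcl3-/- arrays and 11.6 to 11.9 on the 16 Nfkb1-/- and wild type arrays, so scale, strain and genotype cannot be told apart for Bcl3-/- levels, and genotypes were compared through their responses (HU minus WB on the log2 scale). Only 92 of the 113 tested factor probe sets passed the filter on the Nfkb1-/- and wild type arrays alone. Nfkb1 has no probe set of its own in the annotation, and the 1 probe set of Bcl3 (1418133_at) cannot check that deletion across scales. WB Bcl3-/- replicates 2 and 4 stood farthest from their own group (root mean square log2 distance 0.359 and 0.292, against 0.144 to 0.285 for all other arrays). No arrays held identical values, and the number of arrays limits the precision of every value.

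The genes with the same probe set called higher with unloading in all 3 genotypes were Eif5, Eef2k and Eif3f. For that reason the bases before their first listed start (RefSeq, build GRCm38.p6, plus strand, 5′ to 3′) are shown. Eif2s2 was also called higher in each genotype, but through other probe sets in wild type muscle than in the knockouts, and is not shown. Capitals mark CACGTG, an E-box read by bHLH factors, which the Eif5 stretch does not hold. The stretches are chr12:111537851-111538100 for Eif5, chr7:120842581-120842830 for Eef2k and chr7:108934165-108934414 for Eif3f.
Eif5: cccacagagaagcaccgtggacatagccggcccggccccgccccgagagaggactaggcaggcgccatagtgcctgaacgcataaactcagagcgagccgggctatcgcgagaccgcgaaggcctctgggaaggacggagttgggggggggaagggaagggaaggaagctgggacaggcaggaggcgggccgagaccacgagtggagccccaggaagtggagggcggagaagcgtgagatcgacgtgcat
Eef2k: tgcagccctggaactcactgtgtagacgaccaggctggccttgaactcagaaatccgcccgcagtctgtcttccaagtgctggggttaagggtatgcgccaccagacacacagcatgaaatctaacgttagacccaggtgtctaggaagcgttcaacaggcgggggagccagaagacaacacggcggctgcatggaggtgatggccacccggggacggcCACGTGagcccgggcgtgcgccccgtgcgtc
Eif3f: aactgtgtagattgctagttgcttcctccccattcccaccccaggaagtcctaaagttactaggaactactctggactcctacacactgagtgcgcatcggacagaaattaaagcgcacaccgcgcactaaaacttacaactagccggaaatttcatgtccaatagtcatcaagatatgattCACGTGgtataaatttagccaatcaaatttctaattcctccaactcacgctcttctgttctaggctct
Of the 52 factor genes, 42 matched the promoter table, and CACGTG (the same on both strands) was found in the 250 bases before the start of 8 of them (19.0%), against 6.05% of all 27025 genes in the table and 8.08% of the 8890 genes in it that were tested on the array. The 8 genes were Eef1aknmt, Eef2, Eef2k, Eif1b, Eif3f, Eif3k, Eif4a1 and Eif4h, which include genes with calls in opposite directions. A κB motif (the site read by NF-κB, searched on both strands) was found for 2 factor genes, Eef1a1 and Eif2ak4 (4.76%, against 7.01% of all genes and 8.68% of those tested on the array), and TGATGNAAN, the element read by Atf4 with C/EBP factors, for Eif2s3x alone (2.38%, against 3.51% and 2.15%). A run of a C and at least 4 pyrimidines beginning in the first 5 transcribed bases, the start of mRNAs regulated by mTORC1, was found for 5 of the 42 (Eif2s3x, Eif2s3y, Eif3b, Eif3f and Eif3l; 11.9%, against 9.87% and 10.5%). A match is a description of these letters and not a site of binding.

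Unloading raised more factor probe sets than it lowered in every genotype. In Nfkb1-/- muscle 17 of 113 probe sets (10 genes) were called higher, 15% of the members against 4.79% of all probe sets tested, and 8 (5 genes) were called lower, 7.08% against 6.59%. In Bcl3-/- muscle 30 (19 genes) were called higher, 26.5% against 7.59%, and 0 lower, against 2.81% (limma, with 5 members below 0 at an unadjusted p under 0.05). In wild type muscle 11 (7 genes) were called higher, 9.73% against 2.31%, and 1 lower, 0.885% against 1.66%. Only 92 members were above 20 on at least 4 Nfkb1-/- or wild type arrays. Of these, 15 were called higher and 7 lower in Nfkb1-/- muscle (16.3% and 7.61%). The counts in wild type muscle were 11 and 1 (12% and 1.09%). Medians of those arrays were 11.6 to 11.9, so many background probe sets were dim there. A background matched for intensity was not computed. A value after ± is a standard error (SE), and a call is a limma adjusted p under 0.05, with Benjamini-Hochberg adjustment over all 19294 probe sets. At an unadjusted limma p under 0.05, 11.1% of all probe sets lay above 0 in Nfkb1-/-, 17% in Bcl3-/- and 9.87% in wild type muscle. The shares below 0 were 13.2%, 9.1% and 8.15%, and they stand beside every unadjusted limma count of an unloading response.

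**Figure D1:**
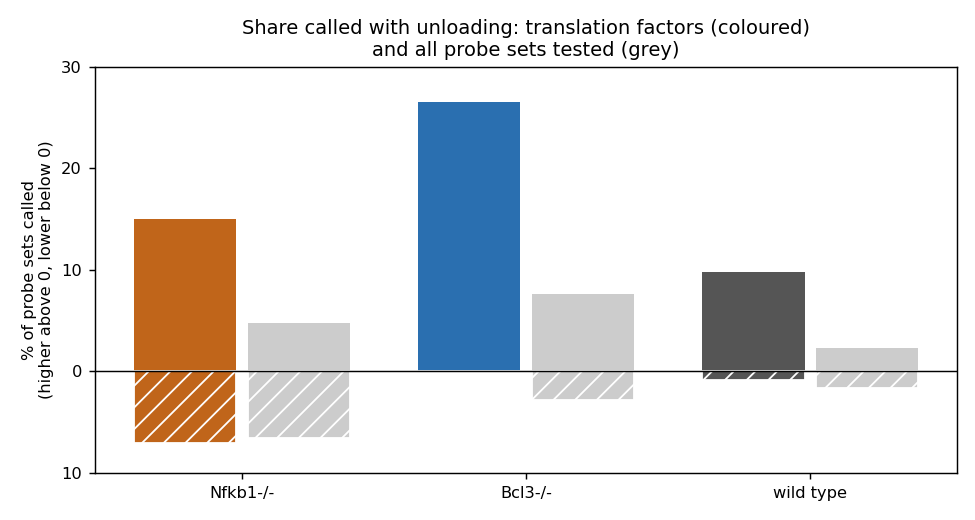
Percent of probe sets called higher (above 0) and lower (below 0, hatched) with unloading, for the 113 translation factor probe sets (coloured) and all 19294 tested (light grey), in Nfkb1-/-, Bcl3-/- and wild type muscle. The share of factors called higher is 15% in Nfkb1-/-, 26.5% in Bcl3-/- and 9.73% in wild type muscle, and the grey bars beside them stand at 4.79%, 7.59% and 2.31%.

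The median log2 change of the 113 factor probe sets was 0.09 in Nfkb1-/-, 0.18 in Bcl3-/- and 0.09 in wild type muscle, beside medians of -0.00, 0.02 and -0.01 over all probe sets. The log2 change was above 0 for 77 members in Nfkb1-/- (68.1%, against 49.7% of all), 95 in Bcl3-/- (84.1%, against 53.6%) and 81 in wild type muscle (71.7%, against 48%). For 55 members of 32 genes it was above 0 in all 3 genotypes, beside 20.9% of all probe sets tested. The HU arrays lay wholly above the WB arrays for 18 members in Nfkb1-/- (background 7.71%), 35 in Bcl3-/- (11.4%) and 22 in wild type muscle (5.86%), and wholly below them for 12 (10.9%), 1 (4.07%) and 5 (4.89%). Only 29 of the 52 genes have more than 1 probe set, and with the brightest probe set per gene the counts called higher were 8 in Nfkb1-/-, 15 in Bcl3-/- and 5 in wild type muscle.

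The counts moved with the test and with single arrays. The methods' t-test at its own threshold, a limit on both the p-value and the q-value, called 3 higher and 4 lower in Nfkb1-/-, 5 higher in Bcl3-/- and 0 higher in wild type muscle (25 lay above 0 there at an unadjusted p under 0.05). Leaving out WB Bcl3-/- replicates 2 and 4, chosen after the data were seen, left 8 higher in Bcl3-/- muscle, and leaving out HU Bcl3-/- replicate 1 left 18. In Nfkb1-/- muscle the higher count was 10 without HU replicate 2, 11 without HU replicate 3 and 10 without WB replicate 4, and the lower count was 4 without HU replicate 3 or 4 and 4 and 3 without WB replicates 1 and 2. In wild type muscle the higher count was 2 without HU replicate 3, 5 without HU replicate 4, 6 without HU replicate 1 and 18 without HU replicate 2, and 7, 7 and 5 without WB replicates 2, 3 and 4.

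**Figure D2:**
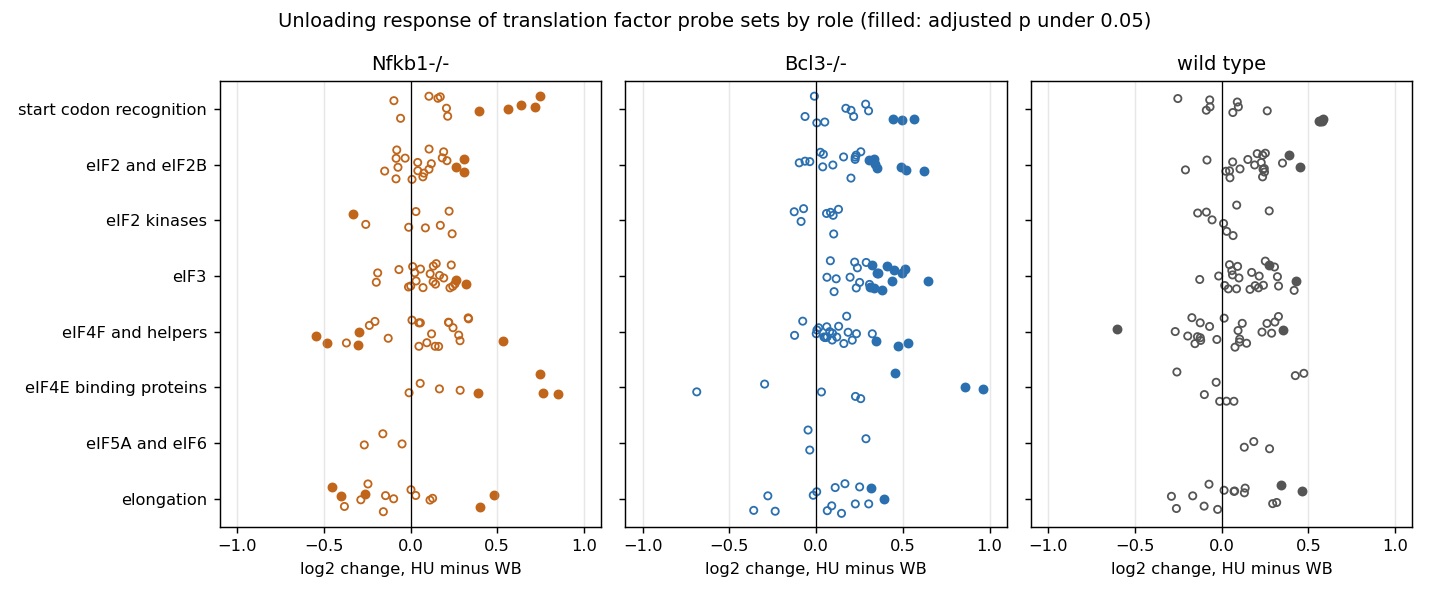
Log2 change with unloading (HU minus WB, x axis) of each of the 113 factor probe sets, grouped by role, in Nfkb1-/-, Bcl3-/- and wild type muscle, with filled points for an adjusted p under 0.05. All 23 eIF3 probe sets lie above 0 in Bcl3-/- muscle and 12 of them are filled, and the filled points below 0 lie in Nfkb1-/- and wild type muscle.

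The factors that recognise the start codon were led by Eif5. eIF5 makes eIF2 hydrolyse its GTP at the start codon, and all 4 probe sets of Eif5 were called higher in Nfkb1-/- and wild type muscle. Of the 12 probe sets of this role, 5 were called higher in Nfkb1-/- (41.7%), 3 in Bcl3-/- (25%) and 4 in wild type muscle (33.3%). The shares over all probe sets tested were 4.79%, 7.59% and 2.31%. None of the 12 was lower by limma in any genotype, also at an unadjusted p under 0.05. With the brightest probe set per gene, 1 of 5 genes, Eif5, was called in Nfkb1-/- and in wild type muscle and 0 in Bcl3-/- muscle.

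The first Eif5 probe set, of the plain _at kind and picked by the study, read 215, 319.8, 313 and 264 in HU Nfkb1-/- muscle, against 189, 138, 173 and 171 in WB Nfkb1-/- muscle. It read 880.3, 789, 877 and 898 in HU Bcl3-/- muscle, against 672, 747, 676 and 697 in WB Bcl3-/- muscle, and 247, 240.4, 299 and 255 in HU wild type muscle, against 165, 182, 179 and 177 in WB wild type muscle. The HU arrays stood wholly above the WB arrays in every genotype. The log2 change was 0.72 ± 0.11 (limma adjusted p = 0.00025) in Nfkb1-/-, 0.30 ± 0.11 (limma adjusted p = 0.078) in Bcl3-/- and 0.56 ± 0.11 (limma adjusted p = 0.0044) in wild type muscle.

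A second Eif5 probe set, 1415723_at, read 311, 464, 444 and 373 in HU Nfkb1-/- muscle, against 258, 219.5, 214 and 248 in WB Nfkb1-/- muscle. It read 319, 400.5, 462 and 399 in HU wild type muscle, against 246, 281, 279.7 and 239 in WB wild type muscle. These groups did not overlap, but the Bcl3-/- groups did, with 1693 to 1980.2 in HU, against 1354 to 1761 in WB Bcl3-/- muscle. Its log2 change was 0.75 ± 0.12 (limma adjusted p = 0.00047) in Nfkb1-/-, 0.29 ± 0.12 (limma adjusted p = 0.14) in Bcl3-/- and 0.59 ± 0.12 (limma adjusted p = 0.0075) in wild type muscle.

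The other Eif5 probe sets were called higher in all 3 genotypes. Probe set 1454663_at read 139, 223, 244 and 156 in HU Nfkb1-/- muscle, against 132, 117, 115 and 114 in WB Nfkb1-/- muscle, and 608, 621, 645 and 610.5 in HU Bcl3-/- muscle, against 463, 372, 527 and 479.6 in WB Bcl3-/- muscle. It read 165, 169, 194 and 171 in HU wild type muscle, against 119, 127, 122 and 105 in WB wild type muscle. Its groups overlapped in no genotype, and its log2 changes were 0.64 ± 0.13 in Nfkb1-/-, 0.44 ± 0.13 in Bcl3-/- and 0.56 ± 0.13 in wild type muscle (limma adjusted p = 0.0027, 0.034 and 0.017).

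The Eif5 probe set of the _a_at kind read 206, 359, 342 and 271 in HU Nfkb1-/- muscle, against 191, 198, 185 and 206 in WB Nfkb1-/- muscle. It read 657, 608, 725 and 706 in HU Bcl3-/- muscle, against 416, 385, 615 and 437 in WB Bcl3-/- muscle, and 265, 318, 345 and 336 in HU wild type muscle, against 219, 219, 225 and 182 in WB wild type muscle. The groups touched in both knockouts, where 1 HU Nfkb1-/- array lay within the WB range and 1 WB Bcl3-/- array lay above the lowest HU array. On the log2 scale the change was 0.56 ± 0.15 in Nfkb1-/-, 0.56 ± 0.15 in Bcl3-/- and 0.58 ± 0.15 in wild type muscle (limma adjusted p = 0.013, 0.016 and 0.024). The study picked this probe set and the first one described from these same arrays for their rise in wild type muscle. Their direction there is no independent evidence.

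Eif5b, the GTPase that joins the ribosomal subunits, was called higher only for 1435592_at in Bcl3-/- muscle, as given with the differences between genotypes, and its other probe sets had log2 changes of -0.06 and 0.00 there. Eif1a, whose protein keeps the scanning ribosome open, was called higher in Nfkb1-/- muscle for 1424344_s_at (0.40 ± 0.11, limma adjusted p = 0.021), whereas 1424343_a_at had -0.06 ± 0.15. Eif1ax and Eif1b had log2 changes of -0.10 to 0.22 in the 3 genotypes and no call.

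eIF2 carries the initiator tRNA and eIF2B recharges it with GTP. Of the 20 probe sets of these complexes and of Eif2d, 3 were called higher in Nfkb1-/- (15%), 7 in Bcl3-/- (35%) and 2 in wild type muscle (10%). Over all probe sets tested the shares were 4.79%, 7.59% and 2.31%. None of the 20 was lower by limma, also at an unadjusted p under 0.05. Eif2s2, which encodes the β subunit of eIF2, was called higher in each genotype, through the same 3 of its 6 probe sets in both knockouts and through 2 others in wild type muscle.

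Probe set 1448819_at of Eif2s2 read 1273, 1161, 1146 and 1124 in HU Bcl3-/- muscle, against 793, 711, 801 and 749.8 in WB Bcl3-/- muscle. It read 208, 221, 215 and 188 in HU Nfkb1-/- muscle, against 163, 172, 187 and 151 in WB Nfkb1-/- muscle, and 179, 193, 201 and 192 in HU wild type muscle, against 167, 152, 164 and 165 in WB wild type muscle. Every HU array exceeded every WB array within its genotype. This was a log2 change of 0.62 ± 0.08 (limma adjusted p = 4.3e-05) in Bcl3-/-, 0.31 ± 0.08 (limma adjusted p = 0.012) in Nfkb1-/- and 0.24 ± 0.08 (limma adjusted p = 0.088) in wild type muscle, and the Bcl3-/- call held under all 39 alternatives.

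Probe set 1448820_a_at of Eif2s2 was called higher in wild type muscle, where it read 388, 308, 376 and 324 in HU wild type muscle, against 296, 252, 232 and 238 in WB wild type muscle (0.45 ± 0.12, limma adjusted p = 0.037). In the knockouts its groups overlapped, with 0.07 ± 0.12 in Nfkb1-/- and 0.26 ± 0.12 in Bcl3-/- muscle, neither called. Among the other Eif2s2 probe sets, 1417712_at and 1417713_at were called higher in Nfkb1-/- (0.26 and 0.31) and Bcl3-/- muscle (0.34 and 0.31), 1456617_a_at in wild type muscle (0.39), and 1441023_at in none (0.01 in Nfkb1-/-, -0.10 in Bcl3-/- and -0.21 in wild type muscle).

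Eif2d, a factor that can place initiator tRNA without eIF2 and also takes part in ribosome recycling, was called higher in Bcl3-/- muscle for 2 of its 4 probe sets. Probe set 1451211_a_at read 528, 462, 445 and 441 in HU Bcl3-/- muscle, against 387, 259, 382 and 298 in WB Bcl3-/- muscle, with no overlap (0.52 ± 0.12, limma adjusted p = 0.0091). It read 45.1 to 55.0 in HU, against 51.3 to 60.2 in WB Nfkb1-/- muscle, and 54.8 to 74.7 in HU, against 48.9 to 62.1 in WB wild type muscle, with overlap in both. The other called probe set, 1436724_a_at, had 0.49 ± 0.10 (limma adjusted p = 0.0038) in Bcl3-/-, -0.03 ± 0.10 in Nfkb1-/- and 0.35 ± 0.10 in wild type muscle. Of the eIF2B subunits, Eif2b5 (the catalytic ε subunit, 0.33) and Eif2b2 1434538_x_at (the β subunit, 0.35) were called higher in Bcl3-/- muscle, whereas both other Eif2b2 probe sets had 0.02 and -0.04. Eif2s3x and Eif2s3y, which encode forms of the γ subunit, Eif2b1 and Eif2b4 had no call in any genotype.

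The kinases that phosphorylate eIF2 respond to heme loss (Eif2ak1), double-stranded RNA (Eif2ak2), endoplasmic reticulum stress (Eif2ak3) and uncharged tRNA (Eif2ak4). Of their 8 probe sets only 1422006_at of Eif2ak2 was called, lower in Nfkb1-/- muscle, where it read 11.4, 9.55, 9.95 and 9.74 in HU Nfkb1-/- muscle, against 14.0, 13.8, 11.3 and 12.0 in WB Nfkb1-/- muscle (-0.33 ± 0.10, limma adjusted p = 0.026). All but 1 HU array lay below the WB arrays, at intensities under the filter minimum. In Bcl3-/- and wild type muscle it had -0.13 ± 0.10 and -0.14 ± 0.10, and the other Eif2ak2 probe set had -0.26 ± 0.09 (limma adjusted p = 0.083) in Nfkb1-/- muscle. Eif2ak1 1421901_at read 67.5, 71.1, 67.9 and 68.2 in HU Nfkb1-/- muscle, against 54.1, 64.2, 64.6 and 53.4 in WB Nfkb1-/- muscle, groups that did not overlap (0.22 ± 0.11, limma adjusted p = 0.22). Its range was 219.7 to 266 in HU, against 198 to 293 in WB Bcl3-/- muscle, and 53.2 to 72.0 in HU, against 53.2 to 65.2 in WB wild type muscle. Eif2ak3 1449278_at read 15.1, 13.4, 13.9 and 13.2 in HU wild type muscle, against 11.6, 10.8, 12.6 and 10.9 in WB wild type muscle, again without overlap (0.27 ± 0.10, limma adjusted p = 0.12), and had 0.09 ± 0.10 in Nfkb1-/- and -0.09 ± 0.10 in Bcl3-/- muscle. Eif2ak4 1421389_a_at was dim and overlapped throughout, at 3.28 to 4.30 in HU, against 3.16 to 3.78 in WB Nfkb1-/- muscle, 29.2 to 31.7 in HU, against 23.5 to 37.3 in WB Bcl3-/- muscle, and 3.53 to 4.49 in HU, against 3.59 to 3.89 in WB wild type muscle.

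eIF3, the largest initiation factor, holds the small subunit ready for mRNA. All 23 probe sets of its 11 measured subunits had a log2 change above 0 in Bcl3-/- muscle, with a median of 0.31, and 12 were called higher (8 subunits). In Nfkb1-/- muscle 19 lay above 0 (median 0.13) and 2 were called higher, and in wild type muscle 21 lay above 0 (median 0.17) and 2 were called higher, with 0 lower by limma in any genotype (at an unadjusted p under 0.05, 1 in Nfkb1-/- and 0 in the other genotypes). The share called higher was 52.2% in Bcl3-/-, 8.7% in Nfkb1-/- and 8.7% in wild type muscle. Over all probe sets tested it was 7.59%, 4.79% and 2.31%. None of the 23 differed in response between a knockout and wild type by limma. A larger change in Bcl3-/- than in wild type muscle was seen for 20 (87%), beside 54.4% of all probe sets tested. Without WB Bcl3-/- replicates 2 and 4, Eif3f and Eif3h alone kept their Bcl3-/- call.

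**Figure D3:**
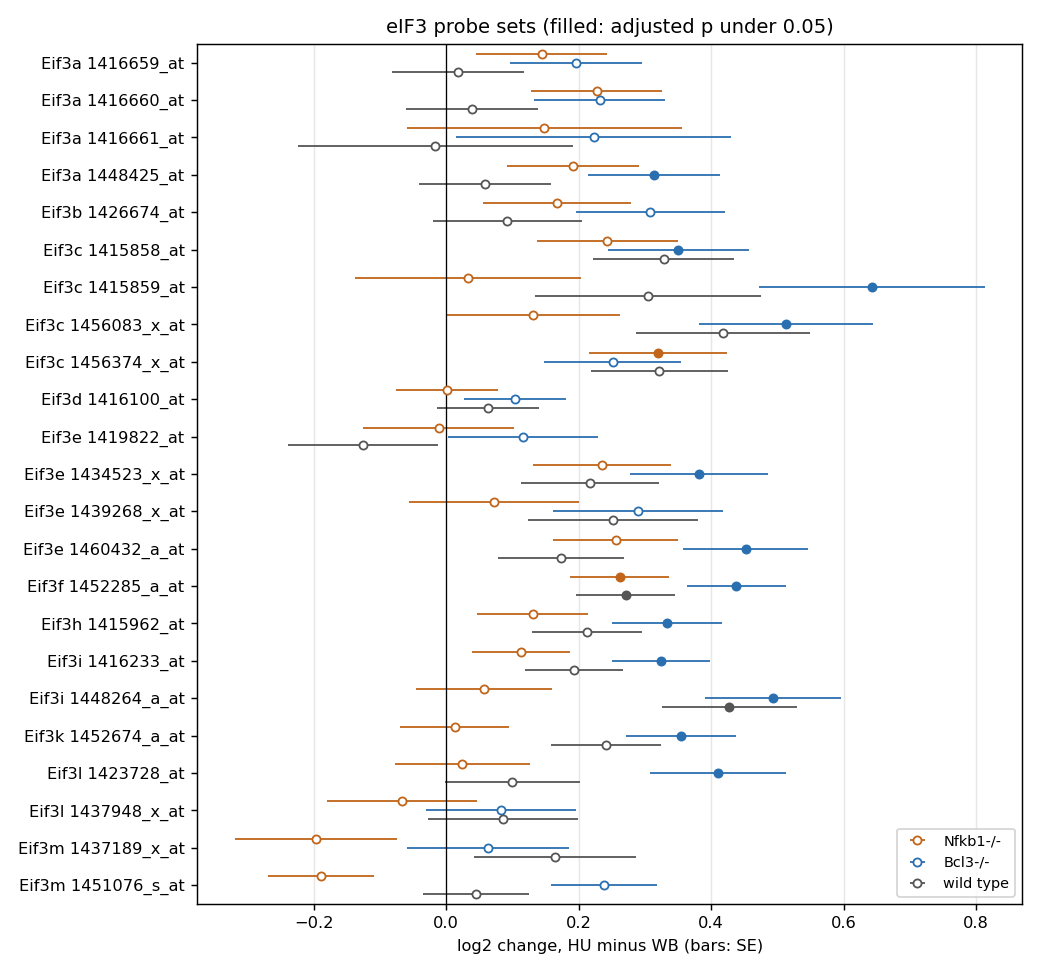
Log2 change with unloading (x axis, HU minus WB) and its SE for each eIF3 probe set in Nfkb1-/-, Bcl3-/- and wild type muscle, filled where the adjusted p was under 0.05. The Bcl3-/- points all lie above 0 (0.06 to 0.64), and both Eif3m probe sets lie below 0 in Nfkb1-/- muscle (-0.20 and -0.19).

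Eif3f, a subunit known in mouse muscle as a target of the ubiquitin ligase Fbxo32, was called higher in every genotype. It read 794, 896, 822 and 839 in HU Nfkb1-/- muscle, against 679, 706, 754 and 657 in WB Nfkb1-/- muscle. It read 4357, 4274, 4165 and 3945 in HU Bcl3-/- muscle, against 3060.3, 2921, 3251 and 3129 in WB Bcl3-/- muscle, and 848, 771, 897 and 963 in HU wild type muscle, against 738, 704, 729.5 and 704 in WB wild type muscle. No HU array overlapped the WB arrays of its genotype, and the log2 changes were 0.26 ± 0.07 (limma adjusted p = 0.024) in Nfkb1-/-, 0.44 ± 0.07 (limma adjusted p = 0.00094) in Bcl3-/- and 0.27 ± 0.07 (limma adjusted p = 0.039) in wild type muscle. The Bcl3-/- call held under all 39 alternatives. The Nfkb1-/- call was lost in 6 of 39, among them without HU replicate 2 or WB replicate 1 or 4. The wild type call was lost in 18 of 39, among them without any 1 wild type array other than HU replicate 2. It was also lost without WB Nfkb1-/- replicate 1 and without HU Bcl3-/- replicate 3.

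Eif3i, a β-propeller subunit, was called higher for 1448264_a_at in Bcl3-/- and wild type muscle. It read 2362, 2127, 2209 and 2171 in HU Bcl3-/- muscle, against 1616, 1309.8, 1775 and 1632 in WB Bcl3-/- muscle, and 368, 304, 359 and 379 in HU wild type muscle, against 301, 256, 249 and 241 in WB wild type muscle. Neither genotype had overlapping groups (0.49 ± 0.10, limma adjusted p = 0.0039 in Bcl3-/-, 0.43 ± 0.10, limma adjusted p = 0.019 in wild type). It read 257, 329, 280 and 262 in HU Nfkb1-/- muscle, against 293, 244, 265 and 280 in WB Nfkb1-/- muscle, which overlapped (0.06 ± 0.10, limma adjusted p = 0.82). The other Eif3i probe set had 0.11 in Nfkb1-/-, 0.32 (called) in Bcl3-/- and 0.19 in wild type muscle.

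Eif3c, a core subunit, has 4 probe sets, of which 3 were called higher in Bcl3-/- (0.35, 0.51 and 0.64) and 1, 1456374_x_at, in Nfkb1-/- muscle (0.32), with none called in wild type muscle (0.30 to 0.42). The Nfkb1-/- call was lost in 23 of 39 alternatives, 19 of which left out 1 array, and the Bcl3-/- calls in 13, 5 and 9. The other _x_at probe set, which the study picked from these arrays, read 256, 358, 305 and 308 in HU Nfkb1-/- muscle, against 263, 273, 293 and 285 in WB Nfkb1-/- muscle, and 1953, 1938, 1834 and 1834 in HU Bcl3-/- muscle, against 1282, 1089.6, 1561 and 1406 in WB Bcl3-/- muscle. It read 453, 294, 406 and 432 in HU wild type muscle, against 325, 316, 310.2 and 231 in WB wild type muscle. The groups overlapped in Nfkb1-/- and wild type muscle but not in Bcl3-/- muscle (0.13 ± 0.13, limma adjusted p = 0.62 in Nfkb1-/-, 0.51 ± 0.13, limma adjusted p = 0.015 in Bcl3-/-, 0.42 ± 0.13, limma adjusted p = 0.073 in wild type). Without HU wild type replicate 2 the wild type change was 0.55 (limma adjusted p = 0.009).

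In Bcl3-/- muscle Eif3a, the largest subunit, was called higher for 1 of 4 probe sets (0.31, lost in 21 of 39 alternatives, 13 of which left out 1 array), and Eif3e for 2 of 4 (0.38 and 0.45). Eif3h (0.33), Eif3k (0.35) and Eif3l 1423728_at (0.41) were also called higher there, and in Nfkb1-/- muscle they had 0.13, 0.01 and 0.02. Eif3b and Eif3d had no call in any genotype. Eif3m 1451076_s_at read 167, 195, 200.1 and 181 in HU Nfkb1-/- muscle, against 206, 209, 222 and 208 in WB Nfkb1-/- muscle (-0.19 ± 0.08, limma adjusted p = 0.14). The same probe set read 1171, 1138, 1181 and 1155 in HU Bcl3-/- muscle, against 1067, 949, 978 and 948 in WB Bcl3-/- muscle (0.24 ± 0.08, limma adjusted p = 0.057). The groups did not overlap in either knockout and stood in opposite orders, and neither change was called.

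eIF4F and its helpers held most of the lower calls by probe set, all of them of Eif4e and Eif4h. With the brightest probe set per gene, 2 of 10 genes were called lower in Nfkb1-/- muscle, as were 2 of 10 elongation genes. Of 24 probe sets, 4 were called lower and 1 higher in Nfkb1-/- muscle, 3 were called higher and 0 lower in Bcl3-/- muscle (limma, 0 below 0 also at an unadjusted p under 0.05), and 1 was called each way in wild type muscle. The Nfkb1-/- shares were 16.7% lower and 4.17% higher, against 6.59% and 4.79% of all probe sets tested. In Bcl3-/- muscle 12.5% were higher, against 7.59%, and 0 lower, against 2.81%. The wild type shares were 4.17% each way, against 2.31% higher and 1.66% lower. Eif4e, which encodes the cap binding protein, was called lower for all 3 probe sets in Nfkb1-/- muscle and for 1 in wild type muscle.

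Eif4e 1423220_at read 77.7, 69.1, 79.5 and 69.8 in HU Nfkb1-/- muscle, against 101, 119, 107 and 106 in WB Nfkb1-/- muscle. It read 579.8, 554, 541 and 601 in HU Bcl3-/- muscle, against 611, 492, 605 and 565 in WB Bcl3-/- muscle, and 93.4, 104, 86.9 and 90.6 in HU wild type muscle, against 127, 110.1, 123 and 93.5 in WB wild type muscle. The Nfkb1-/- groups stood far apart, the wild type groups overlapped by 1 HU array and the Bcl3-/- groups lay over each other. The log2 change was -0.55 ± 0.10 (limma adjusted p = 0.00078) in Nfkb1-/-, 0.01 ± 0.10 (limma adjusted p = 0.98) in Bcl3-/- and -0.27 ± 0.10 (limma adjusted p = 0.12) in wild type muscle, and the Nfkb1-/- call held under all 39 alternatives.

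Eif4e 1450909_at read 14.0, 15.1, 14.2 and 13.9 in HU Nfkb1-/- muscle, against 21.5, 23.7, 18.2 and 17.0 in WB Nfkb1-/- muscle, and 19.1, 20.2, 17.3 and 17.3 in HU wild type muscle, against 28.3, 22.5, 37.4 and 26.1 in WB wild type muscle. Neither genotype had overlapping groups (-0.48 ± 0.14, limma adjusted p = 0.026 in Nfkb1-/-, -0.61 ± 0.14, limma adjusted p = 0.014 in wild type), at intensities near the filter minimum. In Bcl3-/- muscle it read 126 to 167 in HU, against 116 to 177 in WB Bcl3-/- muscle (0.05 ± 0.14, limma adjusted p = 0.88). The brightest probe set, 1450908_at, read 389, 348, 419 and 403 in HU Nfkb1-/- muscle, against 481, 496, 475 and 458 in WB Nfkb1-/- muscle (-0.30 ± 0.09, limma adjusted p = 0.029). It read 2103, 2169, 2165 and 2546 in HU Bcl3-/- muscle, against 2571, 2057, 2319.8 and 2044 in WB Bcl3-/- muscle, and 458, 436, 418 and 432 in HU wild type muscle, against 526, 506, 498 and 438 in WB wild type muscle. Both of those pairs overlapped, with 0.00 ± 0.09 (limma adjusted p = 1) in Bcl3-/- and -0.17 ± 0.09 (limma adjusted p = 0.31) in wild type muscle.

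The relatives of Eif4e had 1 call. Eif4e2, a cap binding repressor, read 72.7 to 101 in HU, against 96.1 to 99.2 in WB Nfkb1-/- muscle, 461 to 509 in HU, against 355 to 516 in WB Bcl3-/- muscle, and 77.7 to 113 in HU, against 91.2 to 106 in WB wild type muscle for 1421985_a_at, overlapping throughout and not called (-0.21 ± 0.13 in Nfkb1-/-, 0.18 ± 0.13 in Bcl3-/- and -0.12 ± 0.13 in wild type muscle). Eif4e3, an atypical cap binding protein, was called higher in Bcl3-/- muscle for 1417978_at (0.34 ± 0.10, limma adjusted p = 0.029). Its brighter probe set, 1417977_at, read 150.3 to 201 in HU, against 134 to 152 in WB Nfkb1-/- muscle, 797 to 877 in HU, against 735 to 849.6 in WB Bcl3-/- muscle, and 145 to 172 in HU, against 148 to 168 in WB wild type muscle, with no call (0.22 ± 0.09 in Nfkb1-/-, 0.08 ± 0.09 in Bcl3-/- and -0.03 ± 0.09 in wild type muscle).

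Eif4h, which helps the eIF4A helicase, was called lower in Nfkb1-/- muscle for 1416941_s_at. It read 309, 319.8, 291 and 307 in HU Nfkb1-/- muscle, against 378, 368, 365 and 402 in WB Nfkb1-/- muscle. In the opposite order, it read 403, 384, 382 and 374 in HU wild type muscle, against 365, 359, 366 and 345 in WB wild type muscle. Neither of these pairs overlapped, and the Bcl3-/- groups did, with 1828 to 1980.1 in HU, against 1712 to 1846 in WB Bcl3-/- muscle. Its log2 change was -0.30 ± 0.06 (limma adjusted p = 0.0029) in Nfkb1-/-, 0.09 ± 0.06 (limma adjusted p = 0.37) in Bcl3-/- and 0.10 ± 0.06 (limma adjusted p = 0.43) in wild type muscle, and the Nfkb1-/- call held under all 39 alternatives. The difference from the wild type response, not called, was -0.40 ± 0.09 (limma adjusted p = 0.057). Both other Eif4h probe sets were also below 0 in Nfkb1-/- (-0.24 and -0.13) and above 0 in wild type muscle (0.26 and 0.09), and neither was called.

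Among the scaffolds, Eif4g3 was called higher in Nfkb1-/- muscle (0.53 ± 0.14, limma adjusted p = 0.013), with 0.18 in Bcl3-/- and 0.10 in wild type muscle. Eif4g2, a scaffold that cannot bind eIF4E, was called higher in wild type muscle for 1452758_s_at (0.35 ± 0.09, limma adjusted p = 0.028), with 0.06 in Nfkb1-/- and -0.12 in Bcl3-/- muscle. The helicase genes Eif4a1 and Eif4a2 had no call. Eif4a1 1427058_at read 241, 271, 305 and 316 in HU Nfkb1-/- muscle, against 194, 248, 228 and 229 in WB Nfkb1-/- muscle (0.33 ± 0.13, limma adjusted p = 0.11), where all but 1 HU array stood above the WB arrays. It read 371, 219, 217 and 258 in HU wild type muscle, against 203, 229.7, 226 and 194 in WB wild type muscle, where HU replicate 1 was the highest and HU replicate 4 also stood above the WB arrays (0.29 ± 0.13, limma adjusted p = 0.24). In Bcl3-/- muscle the groups overlapped, with 1529.9 to 1756 in HU, against 1354 to 1694 in WB Bcl3-/- muscle. Without HU wild type replicate 1, which enters the spread shared by all groups, the Nfkb1-/- change was called (limma adjusted p = 0.035). Eif4a2 read 5006, 5306, 5273 and 4862 in HU Bcl3-/- muscle, against 4807, 4698, 4776 and 4402 in WB Bcl3-/- muscle, and 979.7, 975, 971 and 974 in HU wild type muscle, against 1085, 1006, 982 and 1022 in WB wild type muscle, opposite orders without overlap (0.13 ± 0.07 in Bcl3-/-, -0.07 ± 0.07 in wild type, neither called). The Nfkb1-/- groups overlapped, with 976 to 1071 in HU, against 889 to 1056 in WB Nfkb1-/- muscle.

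Eif4ebp1, the translational repressor 4E-BP1, had the largest log2 changes among the factors in both knockouts. All 3 of its probe sets were called higher in both knockouts and none in wild type muscle. Its relative Eif4ebp2 was called for 1 of 5 probe sets in 1 genotype. Of the 8 probe sets of both genes, 4 were called higher in Nfkb1-/- (50%) and 3 in Bcl3-/- muscle (37.5%). Over all probe sets tested the shares were 4.79% and 7.59%. None of the 8 probe sets of these genes was called lower by limma (at an unadjusted p under 0.05, 0 lay below 0 in Nfkb1-/-, 2 in Bcl3-/- and 1 in wild type muscle, all of Eif4ebp2). The study picked the _x_at probe set of Eif4ebp1 from these arrays as raised in wild type muscle and not in either knockout. Its direction in wild type muscle is therefore no independent evidence, and the limma calls in the knockouts differ from that listing. By quantitative PCR the study reported Eif4ebp1 raised in wild type muscle, with no rise or a smaller one in the knockouts.

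The _x_at probe set of Eif4ebp1 read 155, 347, 332 and 247 in HU Nfkb1-/- muscle, against 149, 150.1, 167 and 143 in WB Nfkb1-/- muscle. It read 1816, 1630.4, 2149 and 1332 in HU Bcl3-/- muscle, against 818, 919, 889 and 885 in WB Bcl3-/- muscle, and 262, 149, 267 and 301 in HU wild type muscle, against 196, 171, 179.6 and 140.1 in WB wild type muscle. Every genotype had 3 or 4 HU arrays above its WB arrays, and the low HU arrays were replicate 1 in Nfkb1-/- and replicate 2 in wild type muscle. On the log2 scale the change was 0.76 ± 0.21 (limma adjusted p = 0.018) in Nfkb1-/-, 0.96 ± 0.21 (limma adjusted p = 0.0051) in Bcl3-/- and 0.47 ± 0.21 (limma adjusted p = 0.22) in wild type muscle. Without HU wild type replicate 2 the wild type change was 0.70 (limma adjusted p = 0.035).

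Probe set 1417562_at of Eif4ebp1 read 121, 261, 273 and 209 in HU Nfkb1-/- muscle, against 109, 106, 135 and 111 in WB Nfkb1-/- muscle. It read 1666, 1616, 2032 and 1338 in HU Bcl3-/- muscle, against 973, 860.3, 926 and 874 in WB Bcl3-/- muscle, and 173, 112, 212 and 232 in HU wild type muscle, against 145, 139, 136 and 106 in WB wild type muscle. The same HU arrays were low as for the _x_at probe set. This was a log2 change of 0.85 ± 0.21 (limma adjusted p = 0.0092) in Nfkb1-/-, 0.86 ± 0.21 (limma adjusted p = 0.011) in Bcl3-/- and 0.42 ± 0.21 (limma adjusted p = 0.28) in wild type muscle.

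The dim Eif4ebp1 probe set 1417563_at read 11.4, 18.7, 16.5 and 12.6 in HU Nfkb1-/- muscle, against 8.36, 8.47, 9.21 and 8.58 in WB Nfkb1-/- muscle. It read 109, 109, 120.4 and 85.7 in HU Bcl3-/- muscle, against 66.4, 89.0, 69.1 and 85.8 in WB Bcl3-/- muscle, and 9.43, 10.6, 11.4 and 9.27 in HU wild type muscle, against 10.2, 9.75, 10.5 and 10.4 in WB wild type muscle. HU stood clear of WB in Nfkb1-/- muscle alone, and all its Nfkb1-/- and wild type values lay under the filter minimum. The log2 change was 0.75 ± 0.13 (limma adjusted p = 8e-04) in Nfkb1-/-, 0.45 ± 0.13 (limma adjusted p = 0.029) in Bcl3-/- and -0.01 ± 0.13 (limma adjusted p = 0.98) in wild type muscle. The Nfkb1-/- response minus the wild type response was 0.76 ± 0.19 (limma adjusted p = 0.083), and for the brighter probe sets it was 0.42 ± 0.30 and 0.29 ± 0.29 (limma adjusted p = 0.6 and 0.74).

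Eif4ebp2, which encodes 4E-BP2, was called higher in Nfkb1-/- muscle for 1455575_at (0.39 ± 0.11, limma adjusted p = 0.022), with 0.03 in Bcl3-/- and -0.10 in wild type muscle. Its brightest probe set, 1436158_at, read 36.6 to 47.8 in HU, against 39.0 to 46.9 in WB Nfkb1-/- muscle, 245 to 298 in HU, against 217 to 254 in WB Bcl3-/- muscle, and 40.0 to 60.7 in HU, against 44.2 to 55.3 in WB wild type muscle. These groups overlapped in each genotype, with 0.06 ± 0.11 in Nfkb1-/-, 0.26 ± 0.11 in Bcl3-/- and 0.03 ± 0.11 in wild type muscle, none called. Probe set 1437733_at had the lowest change of all 113 factor probe sets in Bcl3-/- muscle, where it read 158, 181, 172 and 158 in HU Bcl3-/- muscle, against 289, 795, 156 and 145 in WB Bcl3-/- muscle (-0.69 ± 0.31, limma adjusted p = 0.16). WB replicate 2 stood far above the other arrays there, and WB replicates 3 and 4 lay below every HU array. It had 0.29 ± 0.31 in Nfkb1-/- and -0.03 ± 0.31 in wild type muscle. The dim 1456613_at had -0.30 ± 0.11 (limma adjusted p = 0.082) in Bcl3-/-, -0.26 ± 0.11 (limma adjusted p = 0.2) in wild type and -0.01 ± 0.11 in Nfkb1-/- muscle.

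**Figure D4:**
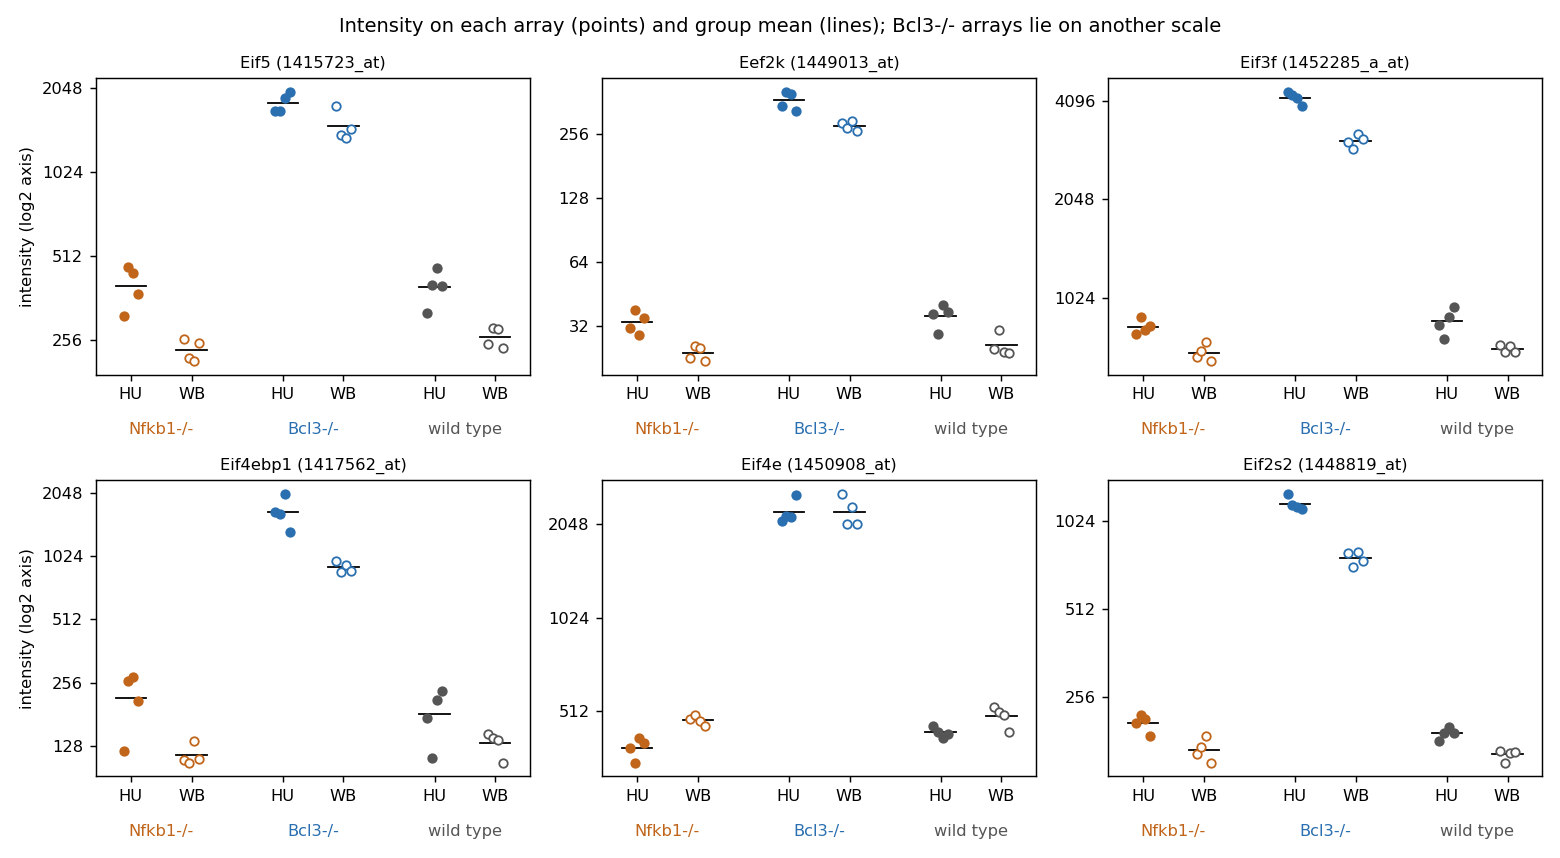
Intensity on each array (log2 y axis, points) and group means (lines) of 6 factor probe sets in HU and WB muscle of Nfkb1-/-, Bcl3-/- and wild type mice, with the Bcl3-/- arrays on their own scale. The group means of Eif5, Eef2k and Eif3f are higher in HU than in WB muscle of each genotype, whereas Eif4e 1450908_at is lower in HU Nfkb1-/- muscle (348 to 419) than in WB Nfkb1-/- muscle (458 to 496).

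eIF5A eases the joining of amino acids that stall the ribosome, and eIF6 keeps the large subunit from joining early. None of their 3 probe sets was called by limma (at an unadjusted p under 0.05, 2 lay below 0 in Nfkb1-/- and 1 above 0 in each of Bcl3-/- and wild type muscle). Eif5a 1451470_s_at read 1297, 1190.3, 1248 and 1397 in HU Nfkb1-/- muscle, against 1410.1, 1495, 1344 and 1478 in WB Nfkb1-/- muscle, and 1799, 1442, 1468 and 1562 in HU wild type muscle, against 1392, 1467, 1439.6 and 1408 in WB wild type muscle, overlapping in both (-0.16 ± 0.08, limma adjusted p = 0.2 in Nfkb1-/-, 0.13 ± 0.08, limma adjusted p = 0.39 in wild type). The Bcl3-/- groups overlapped too, with 6934 to 7391 in HU, against 6911 to 7793 in WB Bcl3-/- muscle. The dimmer Eif5a probe set 1437859_x_at read 235, 235, 238 and 255 in HU Nfkb1-/- muscle, against 285, 299, 272 and 302 in WB Nfkb1-/- muscle, and 402, 306, 311 and 317 in HU wild type muscle, against 278, 286, 292 and 243 in WB wild type muscle, opposite orders without overlap (-0.27 ± 0.09, limma adjusted p = 0.055 in Nfkb1-/-, 0.28 ± 0.09, limma adjusted p = 0.083 in wild type). The difference between these responses, not called, was -0.54 ± 0.13 (limma adjusted p = 0.07). Eif6 had -0.05 ± 0.10 in Nfkb1-/-, 0.29 ± 0.10 in Bcl3-/- and 0.19 ± 0.10 in wild type muscle.

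Among the 15 elongation probe sets, 2 were called higher and 3 lower in Nfkb1-/-, 2 higher and 0 lower in Bcl3-/- and 2 higher and 0 lower in wild type muscle (limma, with 3 and 2 below 0 at an unadjusted p under 0.05 in Bcl3-/- and wild type muscle). The share higher was 13.3% in each genotype, against 4.79%, 7.59% and 2.31% of all probe sets tested. In Nfkb1-/- muscle 20% were lower, against 6.59%. The shares of all probe sets lower in Bcl3-/- and wild type muscle were 2.81% and 1.66%. Eef2k, the kinase that inhibits eEF2, was called higher in every genotype. It read 31.2, 38.1, 29.0 and 34.8 in HU Nfkb1-/- muscle, against 22.5, 25.7, 25.1 and 21.7 in WB Nfkb1-/- muscle. It read 349, 406, 397 and 331 in HU Bcl3-/- muscle, against 290.3, 274, 296 and 266 in WB Bcl3-/- muscle, and 36.3, 29.1, 40.1 and 37.2 in HU wild type muscle, against 24.9, 30.5, 24.1 and 23.8 in WB wild type muscle. HU replicate 2 lay below WB replicate 2 in wild type muscle, the only overlap. Its log2 change was 0.48 ± 0.11 (limma adjusted p = 0.0047) in Nfkb1-/-, 0.39 ± 0.11 (limma adjusted p = 0.022) in Bcl3-/- and 0.46 ± 0.11 (limma adjusted p = 0.015) in wild type muscle.

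Eef2, the factor that moves the ribosome along the mRNA and the substrate of Eef2k, was called higher in Nfkb1-/- muscle. It read 1048, 1049, 957 and 970.2 in HU Nfkb1-/- muscle, against 702, 751, 873 and 729.7 in WB Nfkb1-/- muscle, without overlap (0.40 ± 0.11, limma adjusted p = 0.016). It read 6689, 6814, 6232 and 5440.2 in HU Bcl3-/- muscle, against 5891, 6087, 4826 and 4451 in WB Bcl3-/- muscle, and 975, 736, 898 and 982 in HU wild type muscle, against 998, 943, 914 and 899.7 in WB wild type muscle. Both of those pairs overlapped (0.25 ± 0.11, limma adjusted p = 0.14 in Bcl3-/-, -0.07 ± 0.11, limma adjusted p = 0.79 in wild type).

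The paralogues that deliver aminoacyl-tRNA had no call. Eef1a1, the form of most tissues, read 1619, 1767, 1516 and 2226 in HU Nfkb1-/- muscle, against 1668, 1516, 1647 and 1698 in WB Nfkb1-/- muscle, and 2799.8, 1572, 1539 and 1602 in HU wild type muscle, against 1689, 1341, 1465 and 1356 in WB wild type muscle. In wild type muscle HU replicate 1 stood far above the others (0.32 ± 0.14, limma adjusted p = 0.23), and in Nfkb1-/- and Bcl3-/- muscle the change was 0.11 ± 0.14 and 0.11 ± 0.14. Eef1a2, the form of adult muscle and neurons, read 4860.2, 6106, 5696 and 5023 in HU Bcl3-/- muscle, against 8321, 8612, 6251 and 5133 in WB Bcl3-/- muscle, and 1054, 1077, 1135 and 1159 in HU wild type muscle, against 1374, 1288, 1408 and 1234 in WB wild type muscle. The wild type groups did not overlap (-0.26 ± 0.12, limma adjusted p = 0.27), the Bcl3-/- groups did (-0.36 ± 0.12, limma adjusted p = 0.064), and Nfkb1-/- muscle had -0.10 ± 0.12. Without WB Bcl3-/- replicate 4 the Bcl3-/- change was -0.50 (limma adjusted p = 0.0067), and 9 alternatives in all called it lower. Sequence shared between these paralogues and with pseudogenes could reach either probe set.

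Eef1akmt1, a lysine methyltransferase of eEF1A, was called lower in Nfkb1-/- muscle for 2 of 4 probe sets. Probe set 1418386_at read 53.0, 57.3, 43.1 and 55.1 in HU Nfkb1-/- muscle, against 68.5, 71.4, 68.6 and 75.5 in WB Nfkb1-/- muscle, and 459 to 496 in HU, against 409 to 493 in WB Bcl3-/- muscle, and 68.9 to 90.1 in HU, against 60.7 to 79.0 in WB wild type muscle. The Nfkb1-/- groups did not overlap and the others did (-0.45 ± 0.10, limma adjusted p = 0.004 in Nfkb1-/-, 0.06 ± 0.10, limma adjusted p = 0.73 in Bcl3-/-, 0.14 ± 0.10, limma adjusted p = 0.53 in wild type). Probe set 1449072_a_at read 45.8, 43.2, 31.0 and 38.2 in HU Nfkb1-/- muscle, against 52.2, 52.7, 49.0 and 52.6 in WB Nfkb1-/- muscle, again apart (-0.40 ± 0.12, limma adjusted p = 0.03), with 0.09 ± 0.12 in Bcl3-/- and 0.07 ± 0.12 in wild type muscle. For the first, the Nfkb1-/- response minus the wild type response, not called, was -0.59 ± 0.14 (limma adjusted p = 0.075).

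The subunits that recharge eEF1A were split. Eef1b2 was called higher in Bcl3-/- (0.32) and wild type muscle (0.34), with 0.03 in Nfkb1-/- muscle. Eef1d was called lower in Nfkb1-/- muscle for 1 of 3 probe sets (1449506_a_at, -0.26, lost in 20 of 39 alternatives, 15 of which left out 1 array), with all 3 below 0 there. Its probe set 1439439_x_at read 106, 138, 136 and 81.5 in HU Nfkb1-/- muscle, against 149, 148, 139 and 152 in WB Nfkb1-/- muscle, and 1159.5, 1039, 1091 and 995 in HU Bcl3-/- muscle, against 729.9, 861, 951 and 944 in WB Bcl3-/- muscle, opposite orders without overlap and without a call (-0.38 ± 0.14 in Nfkb1-/-, 0.30 ± 0.14 in Bcl3-/-). Eef1e1, Eef1aknmt and Eef2kmt had no call in any genotype.

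The 3 unloading responses were also set against each other by gene. Called higher in all 3 genotypes were 4 probe sets, of Eif5 (1454663_at and the _a_at probe set), Eef2k and Eif3f, beside 0.389% of all probe sets tested. Without WB Bcl3-/- replicates 2 and 4, Eif3f alone kept all 3 calls. With HU wild type replicate 1 and WB wild type replicate 4 also left out, none of the 4 did. By the methods' t-test, at its own threshold or after Benjamini-Hochberg adjustment, none of the 4 kept all 3 calls either. None of the 4 kept them without HU wild type replicate 3 or without HU Bcl3-/- replicate 3, 1 kept them without HU or WB wild type replicate 4, and 2 kept them without HU Nfkb1-/- replicate 2, HU Bcl3-/- replicate 2 or WB Bcl3-/- replicate 2. No factor probe set was called in opposite directions in 2 genotypes. Of the 30 probe sets called higher in Bcl3-/- muscle, all 30 stayed above 0 without WB replicates 2 and 4, and the 7 that kept their call belong to Eif2d, Eif2s2, Eif3f, Eif3h, Eif4e3 and Eif4ebp1.

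A response past the threshold in 1 genotype is not shown to differ from another, so the differences between responses were tested. None of the 113 factor probe sets differed between Nfkb1-/- and wild type muscle by limma (background 0.057% higher and 0.119% lower), with 8 larger and 16 smaller in Nfkb1-/- muscle at an unadjusted p under 0.05 (background 4.95% and 7.32%). Between Bcl3-/- and wild type muscle 2 differed, both larger in Bcl3-/- muscle, beside 0.803% of all probe sets, and 0 were smaller, beside 0.264% (3 at an unadjusted p under 0.05, background 4.84%). These comparisons share the wild type arrays.

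Eif4b, which boosts the eIF4A helicase, was 1 of these. Its probe set 1426378_at read 1519, 1394, 1367 and 1152 in HU Bcl3-/- muscle, against 947, 872, 1003 and 928 in WB Bcl3-/- muscle (0.53 ± 0.12, limma adjusted p = 0.0064). It read 211, 179, 257 and 289 in HU wild type muscle, against 280.2, 257, 242 and 236 in WB wild type muscle (-0.14 ± 0.12, limma adjusted p = 0.6). HU lay wholly above WB in Bcl3-/- muscle, and in wild type muscle 2 HU arrays lay below and 1 above all WB arrays. The difference between the responses was 0.67 ± 0.17 (limma adjusted p = 0.049), and it was lost in 26 of 37 alternatives. Without WB Bcl3-/- replicates 2 and 4 it was 0.61 (limma adjusted p = 0.18). The same probe set read 262, 276, 251 and 255 in HU Nfkb1-/- muscle, against 199.9, 209.9, 256 and 199.7 in WB Nfkb1-/- muscle (0.28 ± 0.12, limma adjusted p = 0.14). For the other Eif4b probe sets, neither called, the difference between these responses was 0.44 ± 0.17 and 0.67 ± 0.17 (limma adjusted p = 0.25 and 0.052).

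Eif5b was the other, through 1435592_at. It read 193, 170.1, 178 and 158 in HU Bcl3-/- muscle, against 128, 122, 119.9 and 125 in WB Bcl3-/- muscle (0.49 ± 0.12, limma adjusted p = 0.013), with no overlap. It read 16.5, 18.8, 26.5 and 19.9 in HU wild type muscle, against 25.6, 23.6, 24.2 and 22.4 in WB wild type muscle (-0.25 ± 0.12, limma adjusted p = 0.28), with HU replicate 3 above and the other HU arrays below the WB arrays. The difference between the responses was 0.75 ± 0.17 (limma adjusted p = 0.035), and 12 of 37 alternatives lost it. Without WB Bcl3-/- replicates 2 and 4 it was 0.74 (limma adjusted p = 0.11). In Nfkb1-/- muscle it read 22.3 to 31.5 in HU, against 19.7 to 26.0 in WB Nfkb1-/- muscle (0.21 ± 0.12, limma adjusted p = 0.3). The other Eif5b probe sets, 1434604_at and 1434605_at, had differences between these responses of 0.00 and 0.09, neither called.

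**Figure D5:**
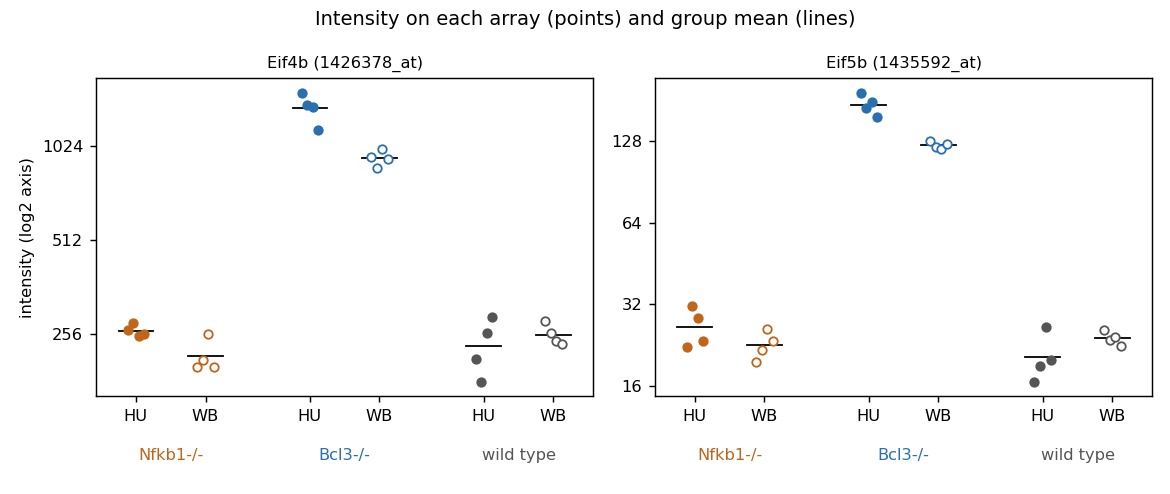
Intensity on each array (log2 y axis, points) and group means (lines) of Eif4b 1426378_at and Eif5b 1435592_at in HU and WB muscle of Nfkb1-/-, Bcl3-/- and wild type mice. In Bcl3-/- muscle the HU arrays lie above all WB arrays for both genes, and in wild type muscle HU and WB arrays overlap for both.

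In weight bearing muscle, the only levels that share a scale are those of Nfkb1-/- and wild type mice. None of the 113 factor probe sets differed between them by limma (background 0.57% higher and 0.332% lower), with 1 higher and 5 lower in Nfkb1-/- muscle at an unadjusted p under 0.05 (background 4.17% and 3.67%). All 8 probe sets of the 4E-BP genes had a log2 difference below 0 (median -0.18, none called), beside 45.9% of all probe sets above 0, and Eif4e 1450909_at had -0.50 ± 0.14 (limma adjusted p = 0.12) there. In the same comparison all 14 macrophage markers lay above 0 (median 0.42, 1 called higher), and their part in these differences was not tested.

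Genes around the factors were counted with 1 probe set per gene. Of all probe sets tested, 4.79% in Nfkb1-/-, 7.59% in Bcl3-/- and 2.31% in wild type muscle were called higher. The shares called lower were 6.59%, 2.81% and 1.66%. Of 41 cytosolic ribosomal protein genes, 8 were called higher in Nfkb1-/-, 20 in Bcl3-/- and 12 in wild type muscle, and 0 lower by limma (2 below 0 in Nfkb1-/- muscle at an unadjusted p under 0.05, 0 in the other genotypes). Their median log2 change was 0.15 in Nfkb1-/-, 0.25 in Bcl3-/- and 0.21 in wild type muscle. Rps25, of the small subunit, had the largest of these changes in each genotype (0.59 in Nfkb1-/-, 0.59 in Bcl3-/- and 0.81 in wild type muscle). Of 18 cytosolic aminoacyl-tRNA synthetase genes, 8 were called higher in Bcl3-/- muscle (median 0.25) and 0 in Nfkb1-/- (0.07) or wild type muscle (0.06; limma, with 1 and 3 above 0 at an unadjusted p under 0.05), led by Tars (0.53), Kars (0.52), Qars (0.40) and Lars (0.38). Among 16 genes of termination, recycling and poly(A) binding, 4 were called higher in Bcl3-/- muscle (25%). In Nfkb1-/- and in wild type muscle 1 was called higher and 1 lower (6.25% each). Etf1, the release factor that reads stop codons, was called higher in Nfkb1-/- (0.49) and Bcl3-/- muscle (0.59). The other Bcl3-/- calls were Paip1, a partner of poly(A) binding protein (0.48), Abcf1 (0.36) and Abce1, which splits ribosomes after termination (0.28). The higher call in wild type muscle was Dhps, the first enzyme of the hypusine modification of eIF5A (0.60), and Pabpc4, a poly(A) binding protein, was the lower call in Nfkb1-/- (-0.45) and wild type muscle (-0.33). Of the 5 mitochondrial translation factors, Mtif2, an initiation factor of mitochondria, was called lower in Nfkb1-/- muscle (-0.47 ± 0.09, limma adjusted p = 0.0016) and no other call was made by limma (at an unadjusted p under 0.05, 3 of the 5 lay below 0 in Nfkb1-/-, 0 in Bcl3-/- and 1 in wild type muscle, and 0 above). Their medians were -0.28 in Nfkb1-/-, -0.10 in Bcl3-/- and -0.15 in wild type muscle.

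Of 23 genes of mTORC1 signalling, 0 were called in wild type muscle (limma, with 5 above 0 at an unadjusted p under 0.05). Called higher were 3 in Nfkb1-/- (13%, against 4.79% of all probe sets tested) and 3 in Bcl3-/- muscle (13%, against 7.59%). In Nfkb1-/- muscle these were Sesn1 (1.03 ± 0.19, limma adjusted p = 0.0013) and Castor2 (0.35), which restrain mTORC1 when amino acids are short, and Akt1, a kinase upstream that activates mTORC1 (0.33 ± 0.11, limma adjusted p = 0.049). The Bcl3-/- calls were the inhibitors Deptor (0.68 ± 0.20, limma adjusted p = 0.031), Castor2 (0.39) and Tsc1 (0.38). Ddit4, another inhibitor, had the changes furthest from 0 in the list, all below 0 and none called (-1.74 ± 0.59, limma adjusted p = 0.06 in Nfkb1-/-, -1.28 ± 0.59, limma adjusted p = 0.17 in Bcl3-/-, -0.93 ± 0.59, limma adjusted p = 0.45 in wild type muscle). The integrated stress response follows eIF2 phosphorylation. Of 23 of its genes, 3 were called higher in Nfkb1-/- (13%), 2 in Bcl3-/- (8.7%) and 1 in wild type muscle (4.35%). The shares of all probe sets tested were 4.79%, 7.59% and 2.31%. Chac1, a glutathione degrading enzyme induced by Atf4, was called higher in Nfkb1-/- (2.74 ± 0.38, limma adjusted p = 0.00012) and Bcl3-/- muscle (1.84 ± 0.38, limma adjusted p = 0.0037). The other Bcl3-/- call was Vldlr (0.67 ± 0.13, limma adjusted p = 0.003). Its response differed from that of wild type muscle (0.93 ± 0.19, limma adjusted p = 0.017). Ppp1r15b was called higher in Nfkb1-/- muscle (0.32 ± 0.10, limma adjusted p = 0.044). Atf4 itself, Asns, Trib3 and Ddit3 were called in no genotype. Of the list, 73.9% lay above 0 in Nfkb1-/-, 43.5% in Bcl3-/- and 52.2% in wild type muscle. The shares of all genes above 0 were 49.2%, 52.7% and 47.1%. Ppp1r15a, the phosphatase subunit that reverses eIF2 phosphorylation, was called higher in Nfkb1-/- (1.38 ± 0.28, limma adjusted p = 0.0025) and wild type muscle (1.20 ± 0.28, limma adjusted p = 0.016).

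Markers of fibre types and of other cells moved with unloading in the same samples. Of all probe sets tested, 4.79% in Nfkb1-/-, 7.59% in Bcl3-/- and 2.31% in wild type muscle were called higher. The shares called lower were 6.59%, 2.81% and 1.66%. All 12 fast fibre markers were measured, and their summed intensity was 68249 to 69974 in HU and 71642 to 73014 in WB Nfkb1-/- muscle, 197161 to 201021 and 188673 to 205341 in Bcl3-/- muscle, and 71169 to 74555 and 71047 to 72541 in wild type muscle. In Bcl3-/- muscle Myh2 was called lower (-1.13) and Actn3 higher (0.25). No fast fibre marker was called by limma in the other genotypes (2 below 0 in Nfkb1-/- muscle at an unadjusted p under 0.05). Of 7 slow fibre markers, 6 were called lower in Bcl3-/- muscle (summed 14292 to 16435 in HU, against 26568 to 31560 in WB), 3 were called higher in Nfkb1-/- muscle (2897 to 6297 in HU, against 3038 to 4841 in WB) and 0 were called in wild type muscle by limma (5 above 0 at an unadjusted p under 0.05, 5083 to 6935 in HU, against 4032 to 5602 in WB). Of 6 neutrophil markers, S100a8, S100a9 and Lcn2 were called higher in both knockouts and 0 in wild type muscle by limma (3 above 0 at an unadjusted p under 0.05), with summed intensities of 77.1 to 153 in HU and 32.6 to 44.8 in WB Nfkb1-/- muscle, 374 to 983 and 222 to 234 in Bcl3-/- muscle, and 38.8 to 113 and 28.6 to 35.0 in wild type muscle.

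None of 14 macrophage markers was called by limma in any genotype (at an unadjusted p under 0.05, 1 above 0 in Nfkb1-/-, 1 below 0 in Bcl3-/- and 8 above 0 in wild type muscle), with summed intensities of 615 to 1114 in HU and 644 to 836 in WB Nfkb1-/- muscle, 3494 to 4057 and 3741 to 4782 in Bcl3-/- muscle, and 569 to 848 and 500 to 624 in wild type muscle. Of 6 fibroblast markers, 4 were called lower in Nfkb1-/-, 4 in Bcl3-/- and 1 in wild type muscle, with summed intensities of 2716 to 5513 in HU and 6309 to 7637 in WB Nfkb1-/- muscle, 17764 to 26734 in HU and 28739 to 39850 in WB Bcl3-/- muscle, and 4259 to 5303 in HU and 6492 to 7781 in WB wild type muscle. Of 6 tendon markers, 3 were called lower in Nfkb1-/-, 3 in Bcl3-/- and 2 in wild type muscle. Of 10 satellite cell and regeneration markers, 2 were called higher in Nfkb1-/- (20%), 1 in Bcl3-/- (10%) and 1 in wild type muscle (10%). The shares of all probe sets called higher were 4.79%, 7.59% and 2.31%. In whole muscle a change in the number of cells of a type and a change in RNA per cell cannot be told apart, and the part of these cells in the factor responses was not tested.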

How the data were processed

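Total RNA of gastrocnemius and plantaris muscle from 24 mice was hybridised to 24 Affymetrix arrays. Per the labels, the authors used GCOS and RMA (background correction, quantile normalization and probe summary), and the deposited values are intensities on a linear scale, listed in 1 table. The Bcl3-/- arrays lie on another scale than the rest. Probe sets were named through the platform annotation, and symbols were updated by gene number (20351 matched). Of the tested factor probe sets, 21 are of the _s_at or _x_at kinds, which can bind related transcripts.

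Intensities were put on the log2 scale, filtered (above 20 on at least 4 arrays) and fitted with limma 3.58.1 in R 4.3.3, with 1 mean per group, a spread shared by the 6 groups (18 residual and 5.89 prior degrees of freedom), two-sided tests and Benjamini-Hochberg adjustment. The fit was tested on simulated data. The study's per-probe t-test, its filter, other scalings and the omission of arrays were alternatives. Replicate numbers do not pair the animals. The probe sets of factors and the gene lists were chosen with earlier results of these data known. Values on every array are given, per comparison and direction, for up to 6 called probe sets of largest change whose groups did not overlap, for those the study picked, for paralogue and role sets and for those that differed between genotypes.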

Additional observations from a re-analysis of the deposited data

Results flagged for a closer look

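Over the 204 sets of 4 arrays formed by 34 factor probe sets in 6 groups, 12 held an array whose distance from the nearest other exceeded Dixon's 95% limit, and chance gives about 1 in 20. In HU muscle, the highest array was Eif4e3 1417977_at at 200.6 in Nfkb1-/- (others 150.3 to 159), Eif2ak2 1422006_at at 11.6 in wild type (others 9.51 to 9.80), Eef1a1 at 2799.8 in wild type (others 1539 to 1602) and Eif4e 1450908_at at 2546 in Bcl3-/- (others 2103 to 2169). Eif2d 1451211_a_at had a low array of 45.1 in HU Nfkb1-/- muscle (others 53.7 to 55.0).

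In WB muscle, the highest array was Eif4ebp1 1417562_at at 135 in Nfkb1-/- (others 106 to 111), Eef1a2 at 1434 in Nfkb1-/- (others 1244 to 1265), Eif5 1454663_at at 132 in Nfkb1-/- (others 114 to 117) and Eef2k at 30.5 in wild type (others 23.8 to 24.9). The lowest was Eef1akmt1 1449072_a_at at 49.0 in Nfkb1-/- (others 52.2 to 52.7), the Eif5 _a_at probe set at 182 in wild type (others 219 to 225) and the Eif3c _x_at probe set picked by the study at 231 in wild type (others 310.2 to 325).

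The responses of Eif4b 1426378_at and Eif5b 1435592_at differed between Bcl3-/- and wild type muscle by 0.67 and 0.75 (limma adjusted p = 0.049 and 0.035). In 6 probe sets, every HU array lay to 1 side of the WB arrays in 1 genotype and to the other side in another. The share of all probe sets with such opposite orders was not computed. These 6 are a list and not a trait of the factors. Between Nfkb1-/- and Bcl3-/- muscle these were Eef1d 1439439_x_at (-0.38 and 0.30), Eif3m 1451076_s_at (-0.19 and 0.24) and Eif4h 1451521_x_at (-0.13 and 0.12), and these differences were not tested. Against wild type muscle they were Eif4h 1416941_s_at (-0.30 in Nfkb1-/- and 0.10 in wild type, limma adjusted p of the difference = 0.057), Eif5a 1437859_x_at (-0.27 in Nfkb1-/- and 0.28 in wild type, limma adjusted p of the difference = 0.07) and Eif4a2 (0.13 in Bcl3-/- and -0.069 in wild type, limma adjusted p of the difference = 0.37).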

How the results depend on the processing

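Under the alternatives, 69 called and 43 uncalled changes of factor probe sets were followed, and none turned its direction while called. Among the 69 called changes, 2217 of 2683 values kept their call and 466 lost it. Other changes named in the report, among them all of the other gene lists, were not run under the alternatives. Of 1672 values for 43 changes not called, 23 gained a call. In Nfkb1-/- muscle, 27 probe sets were higher with array weights, 8 with 1 probe set per gene, 3 by the methods' t-test and 0 after its adjustment, against 17, and 5 were lower with 1 probe set per gene, 4 by the t-test and 2 after its adjustment, against 8. In Bcl3-/- muscle, 17 were higher in a fit of only the groups compared, 15 with 1 probe set per gene, 8 without WB Bcl3-/- replicates 2 and 4, 9 without these and HU wild type replicate 1 and WB wild type replicate 4, 5 by the t-test and 3 after its adjustment, against 30. There, 3 were lower with the study's filter, 4 after adding 16 to the intensity and 1 each with a trended spread, array weights, repeated quantile normalization, centring on medians and without the 4 arrays, against 0. In wild type muscle, 19 were higher with the filter on the arrays compared, 22 with array weights, 4 in a fit of only the groups compared, 5 without the 4 arrays, 5 with 1 probe set per gene and 0 by either t-test, against 11. There, 3 were lower with array weights, 2 with either quantile normalization (repeated, or within each scale) or without the 4 arrays, and 0 in a fit of only the groups compared, after adding 16, with 1 probe set per gene or by either t-test, against 1. For the response of Nfkb1-/- minus wild type, array weights gave 1 higher, and 3 were lower with array weights or the filter on the arrays compared, 2 with the study's filter, a trended spread, centring or without the 2 WB Bcl3-/- arrays and 1 after adding 16, against 0 each. For Bcl3-/- minus wild type, 5 were higher with the study's filter, 4 after adding 16, 1 with no filter, a fit of only the groups compared, array weights or the replicate block and 0 with centring, 1 probe set per gene or without the 2 or 4 arrays, against 2, and 1 was lower with the study's filter, a trended spread or after adding 16, against 0. In WB muscle 2 were lower in Nfkb1-/- with array weights, against 0. Leaving out 1 array at a time gave 10 to 20 higher and 3 to 10 lower in Nfkb1-/-, 18 to 32 higher and 0 to 3 lower in Bcl3-/-, and 2 to 18 higher and 0 to 2 lower in wild type muscle. It gave 0 to 1 higher and 0 to 1 lower for the Nfkb1-/- difference, 0 to 4 higher and 0 to 1 lower for the Bcl3-/- difference, and 0 higher and 0 to 1 lower in WB muscle. Same-numbered arrays deviated together by more than 0.1 in 2 of 12 pairs (correlation -0.173 to 0.222), and 2 arrays were closest to their own number, so the numbers do not pair the animals. With the replicate block, 16 were higher and 7 lower in Nfkb1-/-, 29 and 0 in Bcl3-/- and 9 and 1 in wild type muscle. Separate scales, dim probe sets under 20 and 4 arrays per group limit these comparisons, and the cause of each shift was not tested.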
